A study of Mus musculus with 9 samples.

Results

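The mitochondrially encoded genes were followed through RNA-seq counts of B-cell lymphomas from IµBcl6 mice. All 37 rows of the count table whose symbol starts with mt- were taken, out of 41128 genes in all. They comprise 2 rRNA genes, 13 mRNA genes and 22 tRNA genes, and the rule reads the symbol alone. From Bcl6 mice (Smc3 wt/wt) 3 lymphomas and from Smc3/Bcl6 mice (Smc3 wt/-) 6 lymphomas were compared, with 1 library per tumor. Whether each tumor came from a separate mouse is not given in the labels. Every mouse carries the IµBcl6 allele, which keeps Bcl6 expressed in B cells, and the Cγ1-Cre strain directs the loss of 1 Smc3 copy to B cells at germinal center entry, leaving other cells of the node with both. Tumor 1 of either genotype is labelled mesenteric lymph node, the remaining tumors lymph node, and ages are not given in the labels. Cells were not sorted by any label, so a lower level can reflect fewer cells of a type or less RNA per cell, which cannot be told apart here. Smc3 itself stood at 126, 99.5 and 88.1 CPM (counts per 1e6 library counts, with library sizes adjusted by TMM) in Bcl6 tumors 1 to 3 and 27.9 to 111 CPM with a median of 106 CPM in Smc3/Bcl6 tumors. Of the latter, 5 lay within the Bcl6 range and tumor 2 below it, and the log2 difference was -0.19 (standard error 0.38), so the Smc3 level did not separate the libraries by genotype and each is called by its label throughout.

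The mitochondrial genome is a small circle that is copied and transcribed apart from the nucleus. Both of its strands are transcribed into long precursors, and tRNAs set between the other genes are cut out to free the mRNAs and rRNAs. The mRNAs encode core subunits of respiratory complexes I, III, IV and V, the rRNAs build the mitochondrial ribosome, and all other proteins needed for this are nuclear products. Activated and germinal center B cells are known for adjusting their mitochondria as they divide.

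The count table did not cover this genome evenly. Of the 37 genes, 11 were listed at 0 in all 9 tumors, among them mt-Co2, mt-Atp8, mt-Atp6 and mt-Nd4l, which encode subunits of cytochrome c oxidase, of ATP synthase (both mt-Atp genes) and of complex I. A count of 0 allows up to 3 counts per library, or 0.169 to 0.295 CPM by library total. mt-Co3, another subunit of cytochrome c oxidase, had 5 counts in total. The neighbor mt-Co1 had 585636.

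Most genes at 0 or near it (8 of the 11, and mt-Co3) lay within 1 stretch that has a copy in the nuclear genome. GENCODE M21 (GRCm38) annotates 7 pseudogenes on chromosome 1 between 24611535 and 24616197, on the minus strand, whose sequences follow the mitochondrial bases 6381 to 11042 in the same order. The pseudogenes of mt-Co2 (Gm28661, 681 bases compared), mt-Atp6 (Gm10925, 678 bases), mt-Co3 (Gm28437, 783 bases), mt-Nd4l (Gm10222, 294 bases) and the first 876 bases of mt-Nd4 (Gm28439) matched their mitochondrial gene at every base. That of mt-Nd3 (Gm28438) differed at 1 of 345 bases, and that of the last 492 bases of mt-Co1 (Gm29216) at 6. Pairs of 60 bases are printed to show where the genome and its copy can and cannot be told apart, with capitals at the bases that differ. The mt-Co1 pair starts at base 1054 of the gene and the other pairs at its first base. On GRCm38 the mitochondrial sequences are chrM:6381-6440, chrM:9459-9518 and chrM:7013-7072 on the plus strand, and their copies chr1:24616138-24616197, chr1:24613060-24613119 and chr1:24615506-24615565 on the minus strand.
mt-Co1: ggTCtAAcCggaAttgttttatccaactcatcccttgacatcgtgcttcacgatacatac
Gm29216: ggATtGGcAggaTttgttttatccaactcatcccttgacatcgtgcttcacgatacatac
mt-Nd3: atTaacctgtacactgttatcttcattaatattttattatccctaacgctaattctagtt
Gm28438: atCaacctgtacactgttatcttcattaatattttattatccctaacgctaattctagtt
mt-Co2: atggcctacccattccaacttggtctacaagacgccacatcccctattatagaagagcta
Gm28661: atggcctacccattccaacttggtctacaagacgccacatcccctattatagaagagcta

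Counting positions from the first base of each mitochondrial gene, the mt-Co1 pair differed by T1056A, C1057T, A1059G, A1060G, C1062A and A1066T, all near the start of the pseudogene, and the mt-Nd3 pair by T3C alone. The mt-Co2 pair showed no difference. Windows of 50 bases were called shared if they occur without a mismatch, in either orientation, in a transcript of another gene. Shared windows made up 100% of mt-Co2, 99.5% of mt-Atp6, 99.9% of mt-Co3, 98.0% of mt-Nd3 and 98.8% of mt-Nd4l. The share was 51.1% for mt-Co1 and 62.2% for mt-Nd4, which reach out of the copied stretch at one end, 8.2% for mt-Nd2, 7.6% for mt-Nd5, 1.0% for mt-Rnr2 and 0 for mt-Rnr1, mt-Nd1, mt-Nd6 and mt-Cytb. Genes outside the chromosome 1 stretch also held such windows, namely Gm11512 and Gm13340 for mt-Co1, Gm13341 for mt-Co2 and AC124578.3 for mt-Atp6. The shares of mt-Co1, mt-Co2 and mt-Atp6 thus do not measure the chromosome 1 copy alone. The shared windows of mt-Nd2 (Gm13339), mt-Nd5 (Gm11407 and Gm4076) and mt-Rnr2 (Gm20594) were all with genes outside that stretch. mt-Atp8 and the tRNA genes inside the stretch also showed no shared window. No annotated transcript covers most of the nuclear bases facing them, so their copies could not be compared in full. The end of mt-Atp8, from 7927 to 7969, is also the start of mt-Atp6, which Gm10925 matched, but it is shorter than a window.

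The 11 genes wholly inside the stretch, 6 of mRNA and 5 of tRNA, held 478 of 3251342 mitochondrial counts, or 0.0147%. Of these, 436 fell on mt-Nd3 and 37 on mt-Tr, and 8 of the 11 genes were at 0. The pseudogenes held few counts as well, with 159 in total for Gm28437, 44 for Gm10925, 15 for Gm28661, 2 for Gm28438 and 0 for Gm10222. How reads that map equally well to 2 places were counted is not given in the sources used here, and its part in the zeros was not tested. Where along mt-Co1 and mt-Nd4 the reads fell cannot be read from counts per gene. Genotype differences in mt-Co2, mt-Atp8, mt-Atp6, mt-Co3 and mt-Nd4l were not measurable.

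**Figure D1:**
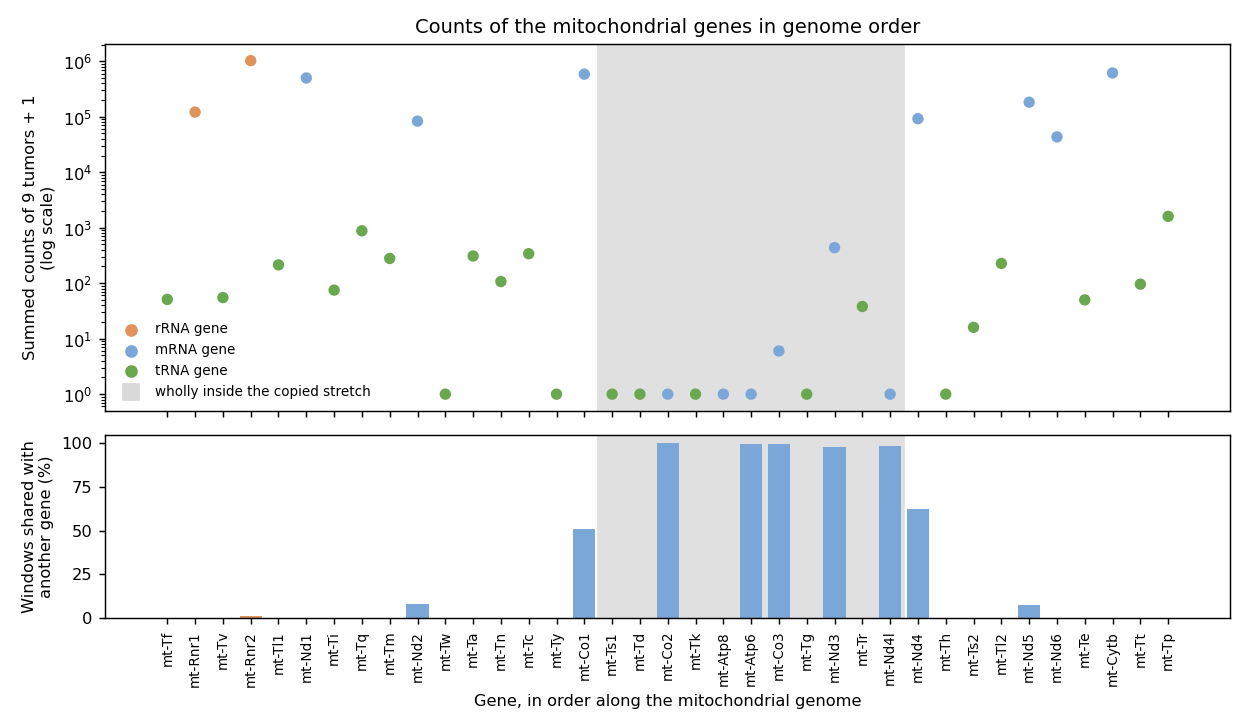
Upper panel, summed counts of the 9 tumors plus 1 on a log axis for the 37 genes in genome order, colored by kind of gene. Lower panel, percent of 50-base windows of each gene found in a transcript of another gene. Inside the gray stretch, 8 of 11 genes are at 0, and the mRNA genes at or near 0 other than mt-Atp8 share at least 98.8% of their windows.

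Among the genes outside the stretch, 3 tRNA genes, mt-Tw, mt-Ty and mt-Th, were also at 0 without a shared window. Counts of the others were compared as CPM per 1000 bases, averaged over the 9 tumors. The paper's methods call these mRNA-seq libraries. How fully they capture rRNA, tRNA or each mRNA is not given. This order, and the ratios between kinds of RNA given below, are therefore of counts and not of RNA amounts. mt-Rnr2, the large rRNA, had 6105, followed by mt-Cytb, the complex III subunit, with 4597, mt-Nd1 with 4586 and mt-Co1 with 3186. mt-Rnr1, the small rRNA, had 1177, and the complex I subunits mt-Nd5, mt-Nd2, mt-Nd6 and mt-Nd4 had 810.5, 687, 675 and 555.5. The means of both rRNA genes rest in part on Smc3/Bcl6 tumor 2. mt-Rnr2 was at 39290 CPM in that tumor and 3257 to 13420 CPM in the others, and mt-Rnr1 at 4613 and 273 to 1443 CPM. mt-Rnr2 did not lead in every tumor, as in Bcl6 tumor 1 the shorter mt-Cytb had 4399 CPM and mt-Rnr2 4347 CPM. The places of mt-Co1 and mt-Nd4 also depended on how shared sequence was treated. Per 1000 unshared windows, which would apply if reads from shared windows were not counted, mt-Co1 was at 6733 beside 6366 for mt-Rnr2, and mt-Nd4 at 1525 beside 1241 for mt-Rnr1. mt-Rnr2 ranked between 2 and 15 among all genes by counts, and mt-Cytb between 5 and 17. Between 0 and 4 mitochondrial genes were among the 10 most counted genes of a tumor.

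The mitochondrial share of all counts was compared between genotypes first. It was 1.75%, 2.11% and 4.90% in Bcl6 tumors 1 to 3 and ran from 1.52% to 5.17% in Smc3/Bcl6 tumors, with a median of 2.26%. The groups overlapped, and the highest tumor of each genotype, Bcl6 tumor 3 and Smc3/Bcl6 tumor 2, stood above the other 7, which lay between 1.52% and 2.35%. The mean was 2.92% ± 1.73 (SD, n = 3) in Bcl6 and 2.59% ± 1.30 (SD, n = 6) in Smc3/Bcl6 tumors, a difference of -0.325 percentage points, within the spread between tumors (exact two-sided permutation test over the 84 splits, p = 0.905). Total counts ran from 10156728 to 17774577, so Wilson 95% intervals, which cover counting error only, were narrow (5.16% to 5.18% for Smc3/Bcl6 tumor 2). Summed macrophage markers were at 7330 CPM in Bcl6 tumor 3 and 6660 CPM in Smc3/Bcl6 tumor 2, and at 7710 and 7200 CPM in Smc3/Bcl6 tumors 3 and 5, whose mitochondrial shares were 1.52% and 2.35%. The 6 B-cell markers were counted in every tumor, at 2540 CPM in sum in Bcl6 tumor 3, the lowest, 4800 CPM in Smc3/Bcl6 tumor 2 and up to 9980 CPM in the others. Bcl6 tumor 3 also had the highest neutrophil sum, 1560 CPM against 7.74 to 825 CPM in the other tumors. Smc3/Bcl6 tumor 2 had the highest plasma cell sum, 5560 CPM against 884 to 4920 CPM, and the highest T-cell sum, 1600 CPM against 25.7 to 1540 CPM. Its erythroid sum was 4660 CPM, within the 43.2 to 12500 CPM of the other tumors. The part of these cells in the mitochondrial share was not tested.

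rRNA, mRNA and tRNA genes held 35.2%, 64.6% and 0.133% of the mitochondrial counts of all tumors together. The rRNA share of a library was 0.471%, 0.626% and 1.55% in the Bcl6 tumors. In Smc3/Bcl6 tumors it ran from 0.382% to 3.04% with a median of 0.665%, and all but tumor 2 lay at or below 0.674%. The genotypes did not separate (means 0.882% ± 0.582, SD, n = 3, and 0.989% ± 1.010, SD, n = 6, exact permutation p = 0.845). The mRNA share was 1.27%, 1.48% and 3.35% in Bcl6 tumors and between 1.13% and 2.12% with a median of 1.59% in Smc3/Bcl6 tumors. Bcl6 tumor 3 was the highest of the 9 here, and the groups overlapped (means 2.03% ± 1.14, SD, n = 3, and 1.601% ± 0.322, SD, n = 6, exact permutation p = 0.488). The tRNA share was 0.00224% to 0.00502% in Bcl6 and 0.00207% to 0.00756% in Smc3/Bcl6 tumors (exact permutation p = 0.905).

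**Figure D2:**
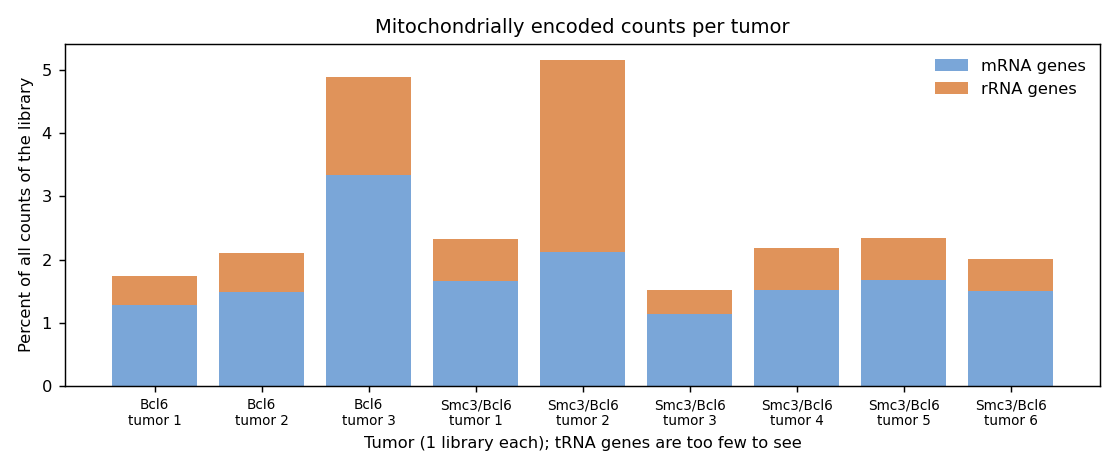
Percent of all counts of each library that fell on mitochondrial mRNA genes (blue) and rRNA genes (orange), 1 bar per tumor. Bcl6 tumor 3 reaches 4.90% mostly through mRNA, and Smc3/Bcl6 tumor 2 reaches 5.17% mostly through rRNA.

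Ratios within the mitochondrial counts do not depend on library size. The ratio of rRNA to mRNA counts was 0.370, 0.424 and 0.462 in Bcl6 tumors 1 to 3. It was between 0.338 and 0.433 in 5 of the Smc3/Bcl6 tumors and 1.43 in tumor 2. On the log2 scale the means were -1.26 ± 0.16 (SD, n = 3) and -1.07 ± 0.79 (SD, n = 6), a difference within this spread (exact permutation p = 0.893), and without tumor 2 the Smc3/Bcl6 mean was -1.39 ± 0.16 (SD, n = 5). Bcl6 tumor 3, although its mitochondrial share was near that of Smc3/Bcl6 tumor 2, kept a ratio of 0.462.

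mt-Rnr2 (ENSMUSG00000064339.1) lies on the mitochondrial chromosome of GRCm38 from 1094 to 2675 and mt-Rnr1 (ENSMUSG00000064337.1) from 70 to 1024, on the same strand with mt-Tv between them. mt-Rnr2 was counted at 4347, 4835 and 13420 CPM in the Bcl6 tumors, and from 3257 to 39290 CPM with a median of 5729 CPM in Smc3/Bcl6 tumors. mt-Rnr1 had 273, 875 and 1443 CPM in Bcl6 tumors, and from 294 to 4613 CPM with a median of 571 CPM in Smc3/Bcl6 tumors. For both genes the highest value was that of Smc3/Bcl6 tumor 2, and the groups overlapped. On the log2 scale, Smc3/Bcl6 against Bcl6 tumors stood at 0.51 (standard error 0.86) for mt-Rnr2 and 0.54 (standard error 0.90) for mt-Rnr1, neither past the thresholds. Without Smc3/Bcl6 tumor 2 they turned to -0.60 (standard error 0.45) and -0.58 (standard error 0.53). The ratio of mt-Rnr2 to mt-Rnr1 counts varied most among the Bcl6 tumors, at 15.9, 5.53 and 9.30, against 6.32 to 11.1 in Smc3/Bcl6 tumors (exact permutation p = 0.881 on the log2 ratio).

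**Figure D3:**
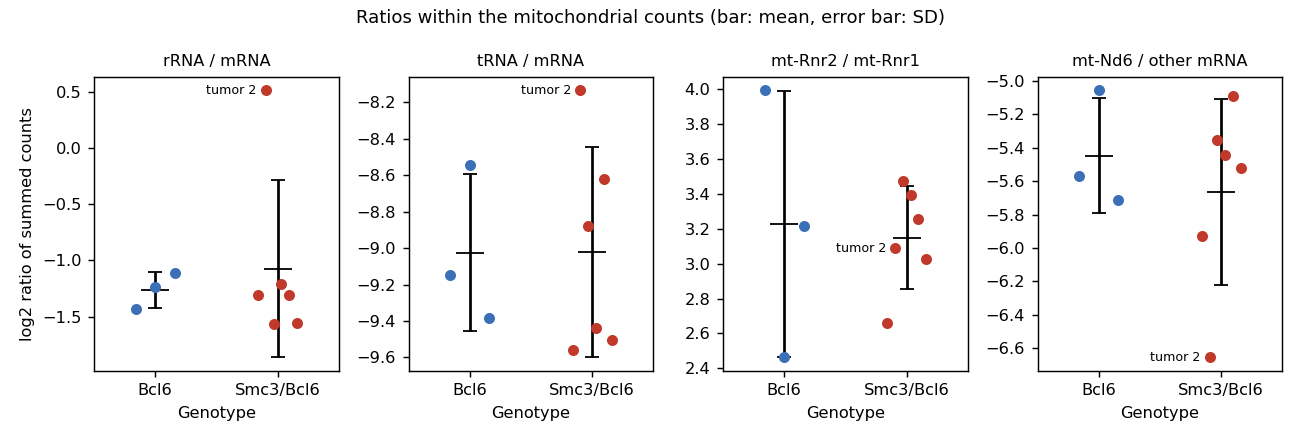
Log2 ratios of summed counts per tumor (points), with mean and SD of each genotype, for rRNA to mRNA, tRNA to mRNA, mt-Rnr2 to mt-Rnr1, and mt-Nd6 to the mRNA genes of the other strand. Smc3/Bcl6 tumor 2 is the highest point in the first and second panels and the lowest in the last.

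Of the 37 genes, 20 passed edgeR's filter on low counts (2 rRNA, 8 mRNA and 10 tRNA genes) and 17 did not. With the study's thresholds (unadjusted p under 0.1, log2 fold change past 0.56 in size), edgeR's quasi-likelihood test called 0 of the 20, against 2.15% of the 14057 genes tested, 0.868% as lower. An unadjusted p under 0.05 was reached by 0 of the 20 and by 0.562% of all genes. DESeq2 called 0 of them, against 3.15% of all genes, and edgeR with the replicate number as a block called 0, against 2.24%. limma with a quality weight per tumor called 5 tRNA genes lower, against 7.13% of all genes lower and 11.7% in either direction, and gave both rRNA genes a negative sign (mt-Rnr1 -0.60, mt-Rnr2 -0.38). edgeR called 1 gene lower with library totals in place of TMM (mt-Tl1), against 1.24% of all genes, and 1 without Bcl6 tumor 1 (mt-Nd6), against 1.64%. Log2 fold changes ran from -0.74 to 0.54, with 9 positive and 11 negative, standard errors from 0.30 to 0.91 and a median of -0.06, against a median of 0.06 over all genes tested. For none of the 20 did the groups stand apart, and 0.484% of all genes tested had groups that did not overlap.

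Among the mRNAs, the complex I subunits mt-Nd6, mt-Nd5 and mt-Nd4 gave the lowest fold changes. mt-Nd6 (13552 to 14070, minus strand), the one mRNA gene read from the opposite strand, had 257, 393 and 601 CPM in Bcl6 tumors and 251 to 436 CPM with a median of 303 CPM in Smc3/Bcl6 tumors. edgeR gave it -0.39 on the log2 scale (standard error 0.30), with a Benjamini-Hochberg adjusted p of 1. Its end overlaps that of mt-Nd5 on the other strand, where reads cannot be assigned without strand. Values of both genotypes overlapped, with Bcl6 tumor 3 the highest of the 9. mt-Nd5 (11742 to 13565) had 1038, 1442 and 2685 CPM in Bcl6 and 1000 to 1713 CPM with a median of 1446 CPM in Smc3/Bcl6 tumors, which is on the log2 scale -0.34 (standard error 0.35). mt-Nd4 (10167 to 11544), which lies partly inside the copied stretch, had 593, 736 and 1314 CPM in Bcl6 and 497 to 1023 CPM in Smc3/Bcl6 tumors, which is on the log2 scale -0.32 (standard error 0.33). mt-Nd2 (3914 to 4951) had 505, 657 and 1189 CPM in Bcl6 and 410 to 1490 CPM in Smc3/Bcl6 tumors, which is on the log2 scale -0.21 (standard error 0.46). All 4 genes were highest in Bcl6 tumor 3 but for mt-Nd2, which was highest in Smc3/Bcl6 tumor 2.

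mt-Nd1 and mt-Nd3 encode complex I subunits as well. mt-Nd1 (2751 to 3707) had 2978, 3070 and 7014 CPM in Bcl6 and 2352 to 11310 CPM with a median of 3210 CPM in Smc3/Bcl6 tumors, which is on the log2 scale 0.02 (standard error 0.56). mt-Nd3 (9459 to 9806) had 2.38, 1.89 and 5.67 CPM in Bcl6 and 1.46 to 14.6 CPM in Smc3/Bcl6 tumors, and its log2 fold change of 0.40 (standard error 0.80) rests on 436 counts. For both, Smc3/Bcl6 tumor 2 was the highest of the 9 tumors.

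mt-Cytb (14145 to 15288) had 4399, 3804 and 9484 CPM in Bcl6 and 2989 to 9174 CPM with a median of 4084 CPM in Smc3/Bcl6 tumors, which is on the log2 scale -0.26 (standard error 0.45). mt-Co1 (5328 to 6872) had 2707, 3381 and 9847 CPM in Bcl6 and 3010 to 6344 CPM with a median of 4798 CPM in Smc3/Bcl6 tumors, which is on the log2 scale -0.17 (standard error 0.45). Bcl6 tumor 3 was the highest of the 9 for both, and the other Bcl6 tumors lay below or within the Smc3/Bcl6 range.

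**Figure D4:**
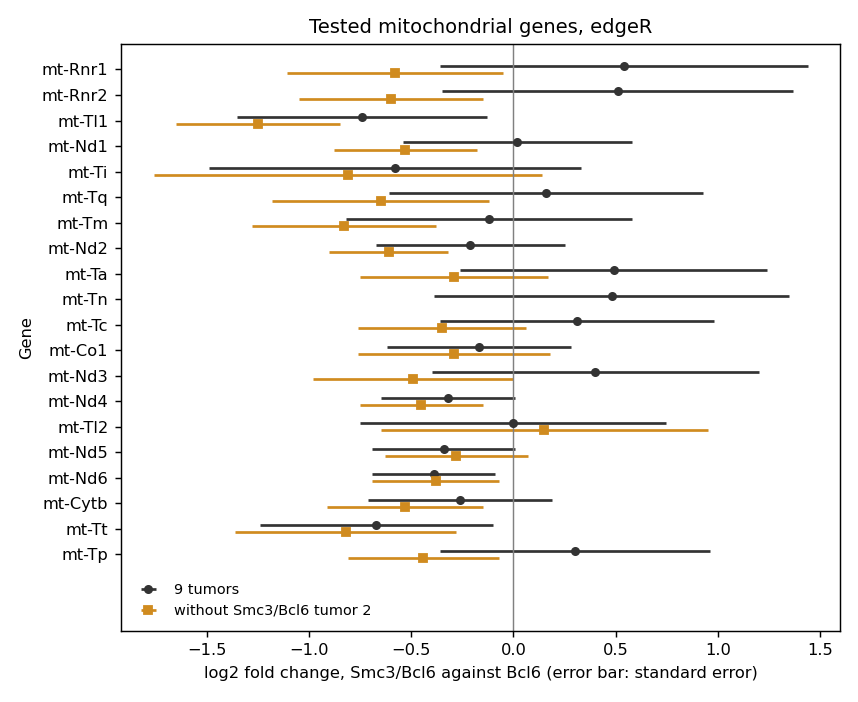
Log2 fold change of Smc3/Bcl6 against Bcl6 tumors with its standard error for the 20 tested genes, with 9 tumors (circles) and without Smc3/Bcl6 tumor 2 (squares, 19 genes). With 9 tumors, 11 of 20 are negative, and without that tumor 18 of 19.

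The signs of these fold changes changed with single libraries of either genotype. Without Smc3/Bcl6 tumor 2, 18 of the 19 genes that passed the filter were negative, with a median log2 fold change of -0.53 against 0.03 over all genes tested. Of the 19, 3 were then lower past the thresholds, against 1.39% of all genes tested as lower and 3.82% in either direction, namely mt-Nd2 (-0.61, standard error 0.29), mt-Tl1 (-1.25, standard error 0.40) and mt-Tm (-0.83, standard error 0.45), with 0.985 as the adjusted p of each in edgeR. mt-Tl2 was the exception in sign, at 0.15 (standard error 0.80). Leaving out Bcl6 tumor 3 moved the signs the other way, so that 15 of 20 genes were positive. The 6 that turned were mt-Co1 (0.63), mt-Cytb (0.27), mt-Nd2 (0.22), mt-Tm (0.22), mt-Nd5 (0.13) and mt-Nd4 (0.09), and the difference in mitochondrial share went from -0.325 to 0.667 percentage points (exact permutation p = 0.5). Without Bcl6 tumor 1, 15 of 20 were negative, and mt-Rnr1 was at -0.01 and mt-Rnr2 at 0.10.

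Smc3/Bcl6 tumor 2 also differed in the make-up of its mitochondrial mRNA counts, a measure that library size does not touch. mt-Nd1 took 36.9% of the counts on the 8 counted mRNA genes in this tumor and 19.0% to 23.9% in the other 8. mt-Nd5 took 3.36% against 8.32% to 11.2%, mt-Nd4 3.33% against 3.84% to 5.46%, mt-Nd6 0.98% against 1.61% to 2.91%, and mt-Co1 20.7% against 21.7% to 32.1%. mt-Cytb, at 29.9%, and mt-Nd2, at 4.86%, lay within the range of the others. By length, mt-Nd1 has 957 bases, mt-Nd5 1824 and mt-Nd6 519.

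**Figure D5:**
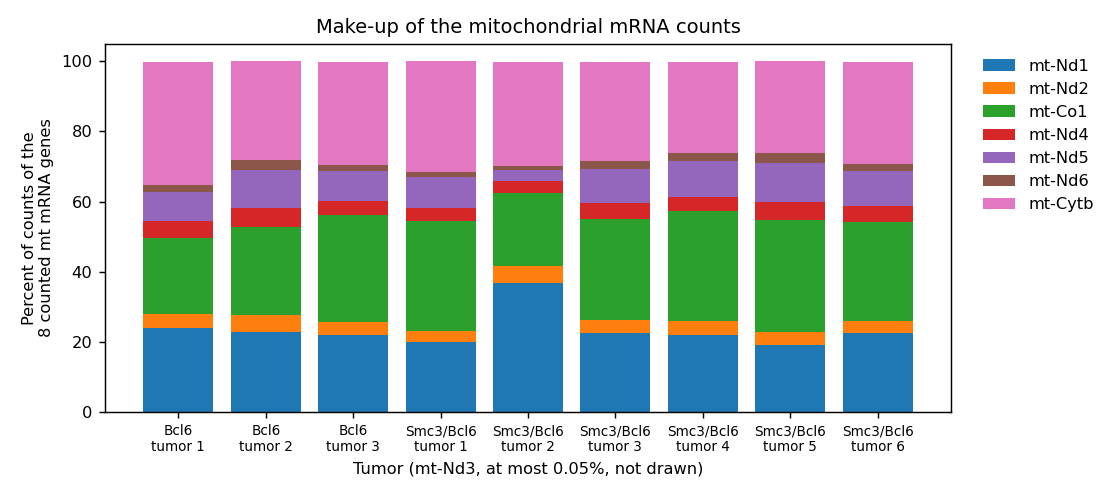
Percent of the counts on the mitochondrial mRNA genes taken by each gene, 1 bar per tumor, with mt-Nd3 left out. Smc3/Bcl6 tumor 2 shows the widest mt-Nd1 band, 36.9%, and the narrowest mt-Nd5 band, 3.36%.

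Relative to the mean of the other 5 Smc3/Bcl6 tumors on the log2 CPM scale, this tumor was 8.47-fold higher for mt-Rnr1, 8.06-fold for mt-Rnr2, 6.48-fold for mt-Nd3 and 3.77-fold for mt-Nd1. Its TMM factor was 0.693, the lowest of the 9, and scaling by the library total alone gave 5.63-fold, 5.35-fold, 4.30-fold and 2.51-fold. mt-Nd5 was at 0.74 of that mean with TMM and 0.49 with the library total, while mt-Co1 was at 1.47 and 0.98, so that the direction of mt-Co1 depended on the scaling. Over the 8 counted mRNA genes, the deviation and gene length had a Spearman correlation of -0.643, a description of 8 genes of the same library, in which mt-Nd6, short but at 0.96, does not follow that order. The part of RNA quality in these values was not tested.

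The tRNA genes held 4323 counts in all. Their counts came mostly from genes on the minus strand, opposite to all mRNA genes but mt-Nd6: 8 such genes held 75.9% of the tRNA counts and the other 14 held the rest. This rests largely on mt-Tp with 1601 counts and mt-Tq with 878. Of the same strand, mt-Ty and mt-Ts1 were at 0. Whether counting used strand is not given in the sources used here, so reads from precursors of either strand cannot be told apart. mt-Tp, the tRNA for proline and the most counted, had 5.82, 12.4 and 18.5 CPM in Bcl6 and 7.57 to 45.4 CPM in Smc3/Bcl6 tumors, which is on the log2 scale 0.30 (standard error 0.66). mt-Tq, the tRNA for glutamine, had 3.00, 7.45 and 11.1 CPM in Bcl6 and 2.73 to 25.4 CPM in Smc3/Bcl6 tumors, which is on the log2 scale 0.16 (standard error 0.77). Both were highest in Smc3/Bcl6 tumor 2, and both groups overlapped.

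The sequences of these and of 2 contrasting tRNA genes are printed with the anticodon in capitals. mt-Tr, for arginine, lies inside the copied stretch but kept counts, and mt-Ty, for tyrosine, lies outside it and was at 0. They lie at chrM:15356-15422, chrM:3772-3842, chrM:9808-9875 and chrM:5260-5326, of which mt-Tr is on the plus strand and the others on the minus strand.
mt-Tp: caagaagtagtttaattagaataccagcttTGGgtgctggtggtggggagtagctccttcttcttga
mt-Tq: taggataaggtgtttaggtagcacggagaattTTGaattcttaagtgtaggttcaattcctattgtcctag
mt-Tr: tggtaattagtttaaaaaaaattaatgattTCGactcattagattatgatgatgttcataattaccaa
mt-Ty: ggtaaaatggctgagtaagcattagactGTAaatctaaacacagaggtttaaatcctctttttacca

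mt-Tr (9808 to 9875) holds a run of 8 A, the longest run of A in the tRNA genes. The chromosome 1 stretch is 4663 bases long against 4662 in the mitochondrial genome, and the 1-base shift falls between the copies of mt-Nd3 and mt-Nd4l, the genes on either side of mt-Tr. The nuclear bases facing mt-Tr were not compared. Whether the shift bears on its counts, which were 0 to 11 per tumor, was not tested.

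Of the other tRNA genes, mt-Tl1 (leucine, between mt-Rnr2 and mt-Nd1) had 2.73, 2.70 and 1.89 CPM in Bcl6 and 0.666 to 3.81 CPM with a median of 1.07 CPM in Smc3/Bcl6 tumors. Of the 6 Smc3/Bcl6 tumors, 5 were below every Bcl6 tumor and tumor 2 was above them, which gave the lowest log2 fold change of the 20 genes, -0.74 (standard error 0.61). mt-Tc, mt-Ta and mt-Tm had 339, 308 and 278 counts in total, mt-Tl2 226 and mt-Tn 106, with log2 fold changes between -0.12 and 0.49. mt-Tt, with 95 counts, had -0.67 (standard error 0.57) and mt-Ti, with 74, had -0.58 (standard error 0.91). No difference beyond the spread between tumors was seen in the ratio of tRNA to mRNA counts (log2 means -9.03 ± 0.43, SD, n = 3, and -9.02 ± 0.58, SD, n = 6, exact permutation p = 0.988).

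The strand of mt-Nd6 sets it apart in base composition. It has 28.1% G and 6.0% C, whereas the mRNA genes of the other strand have 5.9% to 16.1% G and 22.1% to 30.0% C. The ratio of its counts to those of the other mRNA genes was 0.0210, 0.0300 and 0.0191 in Bcl6 and 0.00993 to 0.0293 in Smc3/Bcl6 tumors, lowest in tumor 2. The difference between genotypes on the log2 scale was within the spread between tumors (means -5.45 ± 0.34, SD, n = 3, and -5.67 ± 0.56, SD, n = 6, exact permutation p = 0.607). Over the 8 shares and ratios compared by permutation, the Benjamini-Hochberg adjusted p was 0.988 for each, and 0.0119 was the smallest p that the 84 splits allow.

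Nuclear genes that make and keep mitochondrial RNA were read from the same fit. Of 15 genes of mitochondrial transcription and its regulators, 10 of mitochondrial DNA upkeep, 20 of RNA processing and decay and 6 of rRNA modification, all were tested and 0 passed the thresholds in edgeR, against 2.15% of all genes, with lowest unadjusted p of 0.269, 0.257, 0.19 and 0.337. Median log2 fold changes of these lists were 0.02, 0.27, 0.06 and 0.04. Polrmt, the mitochondrial RNA polymerase, averaged 39.5 ± 14.3 CPM (SD) over the 3 Bcl6 and 46.6 ± 8.25 CPM (SD) over the 6 Smc3/Bcl6 tumors, or 0.24 on the log2 scale (standard error 0.27). Tfam, which packages mitochondrial DNA and starts its transcription, had 73.9 ± 20.6 and 69.1 ± 17.4 CPM (log2 fold change -0.10, standard error 0.28). Tfb2m and Tefm, factors of initiation and elongation, stood at 0.01 (standard error 0.37) and 0.32 (standard error 0.41) on the log2 scale.

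Lrpprc, which stabilizes mitochondrial mRNAs together with Slirp, averaged 112 ± 41.2 CPM (SD) over the 3 Bcl6 and 96.1 ± 36.8 CPM (SD) over the 6 Smc3/Bcl6 tumors, which is on the log2 scale -0.22 (standard error 0.42). Slirp had 41.9, 34.9 and 32.8 CPM in Bcl6 tumors and 20.8 to 38.2 CPM in 5 Smc3/Bcl6 tumors, whereas tumor 2 had 195 CPM. Its log2 fold change of 0.70 (standard error 0.69) thus rests on that tumor. Mtpap, the mitochondrial poly(A) polymerase, had -0.07 (standard error 0.22), and the replication genes Polg and Twnk (listed as Peo1) -0.18 (standard error 0.31) and 0.33 (standard error 0.27). The coactivators Ppargc1a and Ppargc1b, which promote mitochondrial gene programs, had 0.12 (standard error 1.57) and -0.07 (standard error 0.40), the former at 0 in 3 tumors.

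For the nuclear partners of the mitochondrial products, the signs also changed without Smc3/Bcl6 tumor 2. Among 88 tested rows of nuclear respiratory-chain genes, 0 passed the thresholds, against 2.15% of all genes, and 85 had a positive log2 fold change, with a median of 0.48, and among 77 tested rows of mitochondrial ribosomal protein genes 0 passed and 72 were positive, with a median of 0.32. Without that tumor, 10 of 88 and 6 of 77 were positive, the medians were -0.23 and -0.19, and 1 row of each passed as lower, Cox7a1 (-1.19, standard error 0.52) and Mrps6 (-0.58, standard error 0.27), both named after their values were seen, against 1.39% of all genes as lower in that fit. The summed level of the respiratory-chain rows was 46760 CPM in tumor 2 and 7178 to 14130 CPM in the other 8. Mitochondrial mRNA was at 2.12% of counts in that tumor against 1.13% to 3.35% in the others. Bcl6 tumor 3 alone was higher, and the remaining tumors lay at or below 1.67%. This share uses the library total, whereas the summed CPM uses the TMM factor, which was lowest in tumor 2 (0.693). The summed CPM and the share are thus on unlike scales.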

How the data were processed

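RNA was sequenced from 9 tumors. Per the methods, libraries were made with the Illumina TruSeq RNA kit, processed with nf-core/rnaseq, aligned with STAR to mm10 and Gencode transcripts, and counted with featureCounts. The authors deposited counts per gene without normalization, and 1 column belongs to each tumor. Strand and multi-mapping settings are not given in the sources used here. The mt- genes and all lists were chosen with earlier results of these data known.

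Genotypes were compared with edgeR 4.0.16 (R 4.3.3) by its quasi-likelihood test after TMM scaling and filterByExpr, and p was adjusted by Benjamini-Hochberg over 14057 genes. The standard error was taken from the log2 fold change and its F statistic. Shares and ratios were compared by exact permutation. Positions, lengths and sequences come from GENCODE M21 (GRCm38), in which all 37 genes matched by identifier. Copies were matched by identifier, and Gm10222 was added after the data were seen. All mt- genes could be named, with values per tumor for rRNA, mRNA and tRNA genes averaging at least 10 counts, and 11 nuclear regulators. Alternatives included DESeq2 1.42.0 and limma 3.58.1. The fit was first tested on simulated data. Deviations of same-numbered tumors from their genotype means correlated at 0.443, 0.113 and 0.155 across genes, which met the rule for pairing (each above 0.1). The reported fit and permutations are unpaired, and the replicate block over replicates 1 to 3, the ones in both genotypes, is an alternative. Total counts ran from 10156728 to 17774577. The labels number the tumors as replicates, and p-values set a difference against the spread between these samples.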

Additional observations from a re-analysis of the deposited data

Results flagged for a closer look

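Among the 6 Smc3/Bcl6 tumors, 28 measures of the mitochondrial genes were each searched for 1 outlying tumor, by the gap to its nearest neighbor over the whole range. Dixon's 95% critical value is passed by chance in about 1 of 20 groups, or 1.4 of 28, and here 11 passed it, all through Smc3/Bcl6 tumor 2 as the highest value and not independent of each other. The gap over range was 0.772 for the mitochondrial share, 0.89 for the rRNA share and 0.828 for the log2 ratio of rRNA to mRNA. For log2 CPM it was 0.754 for mt-Rnr2, 0.76 for mt-Nd1, 0.732 for mt-Nd2, 0.679 for mt-Nd3, 0.643 for mt-Tm, 0.671 for mt-Ta, 0.634 for mt-Tc and 0.802 for mt-Tp.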

How the results depend on the processing

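None of the 112 alternatives run for the 8 shares and ratios gave a p below 0.05 (lowest 0.19, exact permutation), but signs turned, and the cause was not tested except where a named tumor was left out. With medians, the differences were 0.15 (mitochondrial share) and 0.112 (mRNA share) percentage points, and on the log2 scale -0.0679 (rRNA to mRNA), -0.0096 (tRNA to mRNA) and 0.0894 (mt-Nd6 to other mRNA). Pairing tumors of equal replicate number (replicate block), they were 0.0876 (mitochondrial share) and 0.000314 (tRNA share) percentage points. With lymph node labels only, they were -0.035 (rRNA share) and 0.407 (mt-Rnr2 to mt-Rnr1). Without overlapping mRNA genes, tRNA to mRNA was -0.0043. Leaving out 1 tumor at a time, differences ran from -0.911 to 0.667 (mitochondrial share), -0.303 to 0.44 (rRNA), -0.812 to 0.226 (mRNA) and -0.00112 to 0.000347 percentage points (tRNA), and from -0.128 to 0.288 (rRNA to mRNA), -0.175 to 0.242 (tRNA to mRNA) and -0.455 to 0.308 (mt-Rnr2 to mt-Rnr1) and -0.35 to -0.0202 (mt-Nd6) on the log2 scale.

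Genes lower past the thresholds, 0 as reported, were 5 with limma and quality weights (mt-Tl1, mt-Ti, mt-Tq, mt-Tm and mt-Tt, against 7.13% of all genes lower), 1 with library totals (mt-Tl1, against 1.24%), and 0 to 3 without 1 tumor (mt-Nd6 without Bcl6 tumor 1, against 1.64%, and 3 without Smc3/Bcl6 tumor 2, against 1.39%). With limma, 7 of the 9 positive genes turned negative (mt-Tq -0.80, mt-Rnr1 -0.60, mt-Tc -0.52, mt-Tp -0.41, mt-Rnr2 -0.38, mt-Nd1 -0.32, mt-Ta -0.15), and with library totals 2 did (mt-Nd1 and mt-Tq). Genes higher stayed at 0 in every alternative, and the block changed no call. Over 393 fits of single genes, 23 moved by over 1 standard error without passing. Depth limits the tRNA genes and mt-Nd3.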
